A study of Mus musculus with 3 samples.

Results

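The genes described here are 34 mouse genes of glucose uptake and glycolysis, read through the accessible chromatin around them. They comprise 3 glucose transporters, 3 hexokinases, 7 enzymes of upper and 7 of lower glycolysis, 4 enzymes that set the level of fructose bisphosphate activators, 4 genes of lactate production and export, 5 genes of pyruvate dehydrogenase control, and the regulator Hif1a. An accessible region was counted for a member when no other protein-coding gene's span was nearer and the distance was at most 100 kb. By this rule 140 of the 57457 regions in the data belonged to 33 of the 34 members, out of 21887 protein-coding genes in the RefSeq table. Of the 140 regions, 30 lay within 1 kb of an end of the gene span, 60 lay elsewhere inside a gene and 50 lay outside.

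Open DNA was mapped by ATAC-seq, a method that uses a transposase to cut and tag it, in CD4+ T cells from colon-draining mesenteric nodes of mice. Naive CD4+ cells from the spleens of mice transgenic for CBir1, a T cell receptor that recognises a bacterial flagellin, were stained with CellTrace Violet, a dye diluted at each cell division. They were given to 4 wild-type C57BL/6J mice, which drank 2% dextran sulfate sodium for 7 days to injure the gut barrier. FTY720 was given to all recipients on days 7, 10 and 13, at 1 mg per kg of body weight, to hold lymphocytes in the nodes, and cells were sorted on day 14. The divided fraction was CBir1 cells with diluted dye, the undivided fraction was CBir1 cells that kept it, and the polyclonal fraction was the hosts' own CD4+ T cells. The series text describes pools of 2 mice made in duplicate, but each fraction is 1 peak list here, so every comparison is between single libraries and carries no p-value. No library came from mice without dextran sulfate sodium or FTY720. In these bulk pools, a region open in fewer cells and a region less open in each cell cannot be told apart.

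Glycolysis converts glucose to pyruvate. Glucose enters through transporters of the Slc2a family, is trapped by hexokinase phosphorylation, and is committed to the pathway by phosphofructokinase. Naive T cells make little use of it, whereas activated, dividing T cells raise glucose uptake and turn much of the pyruvate into lactate, with Hif1a among the transcription factors known to induce the enzymes.

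The deposited lists held 47963 divided, 41876 undivided and 44426 polyclonal peaks. The number of fragments stacked at each peak's summit, called the pileup here, was recovered from the authors' fold enrichment and −log10 p. Its median was 31, 30 and 27 fragments over all peaks, and 43, 37 and 35 over the member regions. The lowest local background in the divided library was 1.50 times the undivided and 1.40 times the polyclonal one, while regions called in all 3 libraries had median pileup ratios of 1.21 and 1.19. All pileup ratios below are divided by those medians, and their 95% intervals cover counting error only. Each library's value in a region is that of its most significant summit there, so the summits compared can lie at different positions. A library with no peak in a region has no deposited value there. Gene-end peaks were present at 12, 12 and 11 of 12 CD4 T cell marker genes in the divided, undivided and polyclonal libraries, with summed scaled pileups of 1740, 1788 and 1776 fragments. B cell markers had gene-end peaks at 2, 0 and 1 of 8 genes, summing to 24.0, 0 and 19.8 fragments, and Cd79a, Cd79b, Ms4a1, Pax5 and Cd22 were among those with none in any library. Myeloid markers had them at 3, 4 and 4 of 8 genes (97.0, 99 and 112 fragments), with none at Csf1r, Lyz2, Cd68 or Adgre1. CD8 T cell markers (1, 1 and 1 of 2 genes, with none at Cd8a) summed to 27.4, 51 and 62.3 fragments, so divided cells were lowest. Divided cells were also lowest for NK and innate lymphoid markers (1, 1 and 1 of 5, 30.7, 57 and 48.4 fragments, with none at Ncr1, Klrb1c, Klrk1 or Fcer1g) and epithelial markers (1, 2 and 2 of 5, 20.7, 44 and 48.4 fragments, with none at Krt8, Krt18 or Krt20). Divided cells were not lowest for stromal and endothelial markers (1, 1 and 2 of 5 genes, 35.7, 35 and 42.5 fragments). The same held for erythroid markers (2, 2 and 2 of 4 genes, 88.7, 94 and 88.0 fragments). The part of other cell types in the differences below was not tested.

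Most chromatin around the glycolytic genes was open in all 3 fractions. Of the 140 member regions, 88 (62.9%, Wilson 95% interval 54.6 to 70.4) were called in every library, against 57.6% of the 54435 regions within 100 kb of any gene. Only the divided library called 18 of the member regions, only the undivided library 5, and only the polyclonal library 7. Another 10 were shared by divided and polyclonal cells, 6 by both CBir1 fractions, and 6 by undivided and polyclonal cells. For each of these 7 patterns the members' interval contained the share of all regions.

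**Figure D1:**
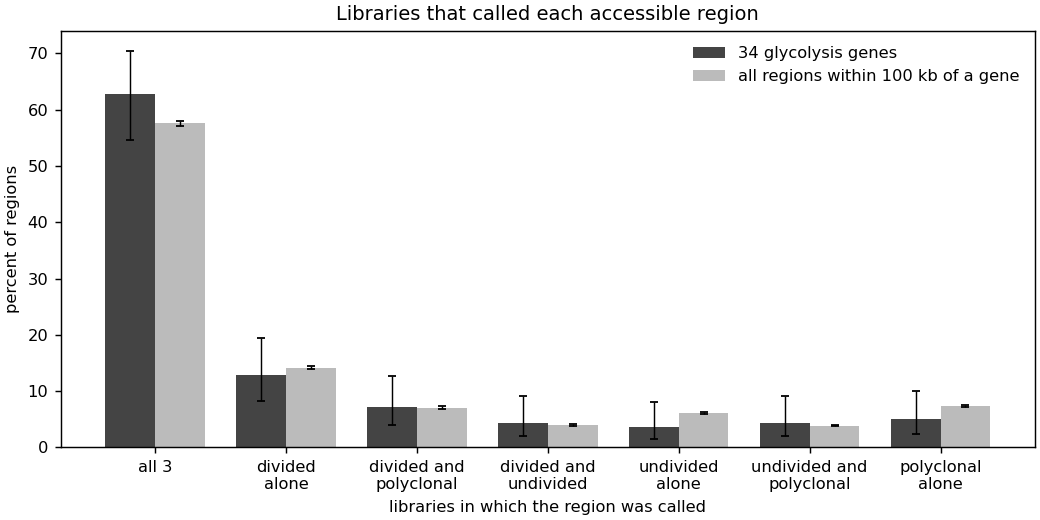
Bars give the percent of regions (y axis) with each combination of calling libraries (x axis), for the 140 regions of the 34 genes (dark) and the 54435 regions within 100 kb of a gene (light), with Wilson 95% intervals for counting error. The regions called in all 3 libraries are the tallest pair, at 62.9% and 57.6%.

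Divided cells had a peak in 28 member regions where undivided cells had none (20%, against 21.2% of all regions), and undivided cells had 11 that divided cells lacked (7.86%, against 9.93%). Compared with the polyclonal library, divided cells had 24 such regions (17.1%, against 18.1%) and lacked 13 (9.29%, against 11.2%). The undivided library had 11 regions that the polyclonal one lacked (7.86%, against 10%), and the polyclonal library had 17 the other way (12.1%, against 14.4%). So each of these 6 counts was near its background share. Restricting to peaks of −log10 q of at least 5 left 22 regions with a divided and no undivided peak (15.7%, against 12.4%) and 6 the other way (4.29%, against 4.75%). The same threshold left 20 in divided and not polyclonal cells (14.3%, against 9.68%) and 6 in reverse (4.29%, against 4.88%), 7 in undivided and not polyclonal cells (5%, against 4.43%), and 11 in reverse (7.86%, against 6.67%). At this threshold the share of divided peaks without an undivided peak had an interval of 10.6 to 22.6%, and that of divided peaks without a polyclonal peak 9.44 to 21.0%, so both contained their background.

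Signal in regions called by both libraries was centred on no difference. The median log2 ratio of scaled pileups was 0.00 for divided over undivided (94 regions, 47 above 0), against 0.01 over all 33476 such regions. It was 0.02 for divided over polyclonal (98 regions, 51 above 0), against 0.02, and −0.02 for undivided over polyclonal (94 regions, 46 above 0), against 0.00. These comparisons share libraries and are not independent. At least 2-fold higher pileup was found in divided over undivided cells in 5 regions (4.19% of all regions), and lower in 1 (3.24%). Divided over polyclonal gave 3 higher (3.45%) and 1 lower (2.1%), and undivided over polyclonal gave 0 higher (1.27%) and 1 lower (1.65%). Scaled by the background in place of the shared regions, 24 of 94 divided over undivided ratios and 27 of 98 divided over polyclonal ratios lay above 0, and the counts past 2-fold became 3 higher and 3 lower, and 2 higher and 3 lower. All regions moved in the same way, to 24.6% and 29.7% above 0.

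Gene ends were called more evenly than the other regions of these loci, as across the genome. A gene-end peak was present at 24 of 34 members in divided cells (49.3% of all genes), 24 in undivided (47.7%) and 25 in polyclonal cells (48.4%). Of the 30 gene-end regions, 27 were called in all 3 libraries (90%, 74.4 to 96.5, against 82.9% of all gene-end regions). The exceptions were 1 weak polyclonal region at each of Hif1a and Slc16a1, and 1 region at the far end of Pkm, which overlaps the end of its neighbour Gramd2. Read against annotated start sites instead, a peak covered a start-site window at 29 of 33 members in each of the divided (48.4%), undivided (47.3%) and polyclonal (47.7%) libraries. All 30 start-site regions were called in all 3 (88.6 to 100%, against 93.5% of all start-site regions). Without a start-site peak were Eno3, Hk3, Pdk4 and Pfkfb1. Aldoa, Hk1, Ldha, Pfkfb2, Pfkfb4, Pfkm and Hif1a had start-site peaks that lay inside the gene span, away from its ends.

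**Figure D2:**
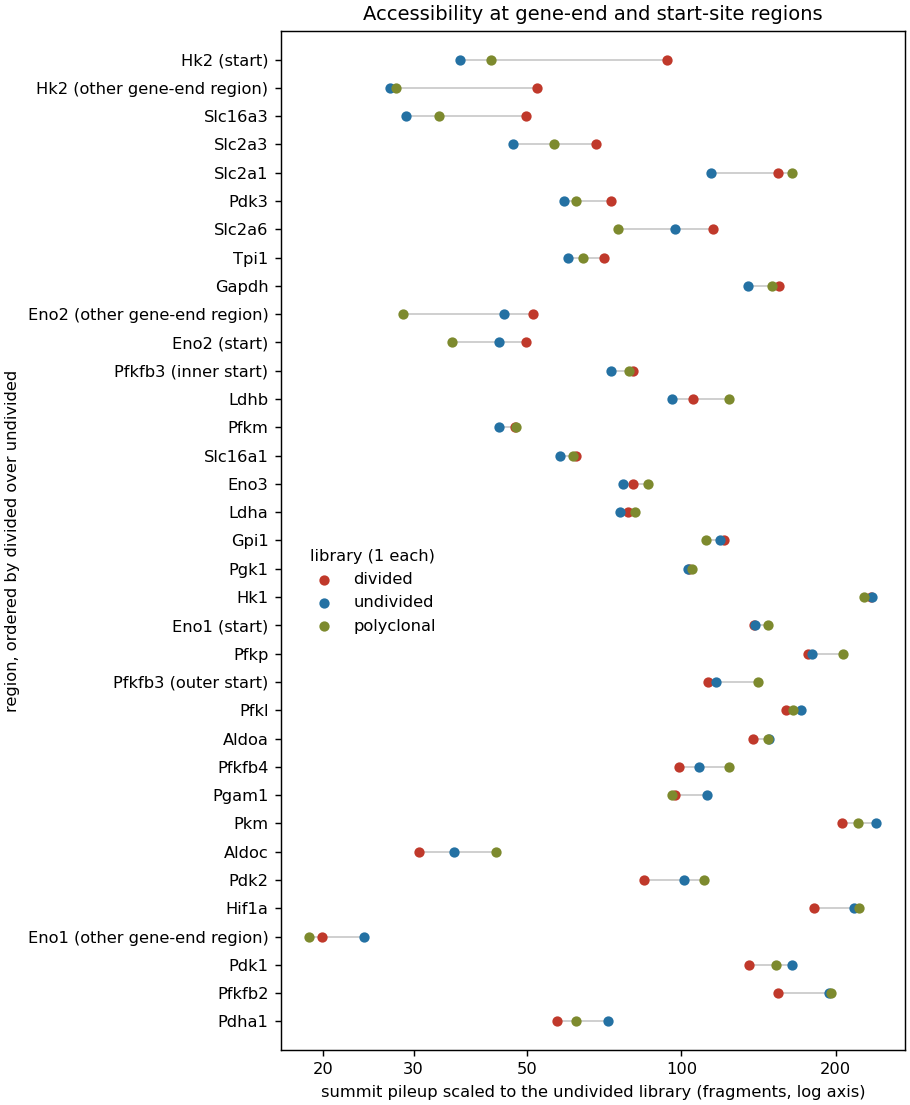
Summit pileup in fragments, scaled to the undivided library (x axis, log), at the 35 gene-end or start-site regions called in all 3 libraries, ordered from the highest to the lowest divided over undivided ratio; each point is 1 library. Most rows have overlapping or close points, and the 2 Hk2 regions at the top have the divided library apart on the right.

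Hexokinases trap glucose by phosphorylating it, and Hk2 is the isoform induced in activated T cells. The start-site region of Hk2 (chr6:82773259-82774992, mm10) had pileups of 113 divided, 37 undivided and 43 polyclonal fragments. Divided cells stood above both other libraries, which were close to each other. The scaled ratio was 2.53 (1.73 to 3.78) over undivided and 2.21 (1.54 to 3.22) over polyclonal cells, and 0.870 (0.545 to 1.38) between undivided and polyclonal cells. Among gene-end regions called in all 3 libraries, the pileup ranked at percentile 62.6 for the divided library, 22.8 for the undivided and 25.7 for the polyclonal one. The neighbouring gene-end region, 759 bp upstream of the gene span, had 63, 27 and 28 fragments, a ratio of 1.93 (1.21 to 3.16) over undivided cells. Local background was also higher in divided cells, at 13.9, 4.55 and 5.28 fragments around the start-site region and 13.5, 4.52 and 5.19 around its neighbour. In the authors' fold, which divides by that background, the log2 difference at the start site was only 0.16 over undivided and 0.12 over polyclonal cells, and at the neighbour it turned to −0.21 and −0.09.

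The sequence before the Hk2 start is shown because this was the only gene-end region past 2-fold, together with those of Pdha1 and Pdk1, whose gene-end regions had the lowest divided over undivided ratios. Each is the 250 bases before a RefSeq start site of GRCm38.p6, written 5′ to 3′ on the gene's strand, with matches on either strand in capitals. The motifs searched were ACGTG (a form of the hypoxia response element core), CACGTG (the E-box bound by Myc), the Sp1 motif GGGCGG and the AP-1 motif TGANTCA. The other form of that core, GCGTG, was not searched. The sequences lie at chr6:82774455-82774704 on the minus strand, chrX:160138431-160138680 on the minus strand and chr2:71872974-71873223 on the plus strand. In the last, the final 9 bases lie inside the gene span of Pdk1.
Hk2: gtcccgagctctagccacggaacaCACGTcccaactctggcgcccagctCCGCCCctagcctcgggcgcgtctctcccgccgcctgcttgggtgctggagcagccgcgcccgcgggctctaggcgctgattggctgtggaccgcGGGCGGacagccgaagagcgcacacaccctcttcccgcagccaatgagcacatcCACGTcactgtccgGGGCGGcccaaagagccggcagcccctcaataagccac
Pdha1: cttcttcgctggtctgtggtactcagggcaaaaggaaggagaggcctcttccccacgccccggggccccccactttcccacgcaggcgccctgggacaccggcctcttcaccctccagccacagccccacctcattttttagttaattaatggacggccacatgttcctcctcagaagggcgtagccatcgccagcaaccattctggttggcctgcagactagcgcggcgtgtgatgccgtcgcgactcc
Pdk1: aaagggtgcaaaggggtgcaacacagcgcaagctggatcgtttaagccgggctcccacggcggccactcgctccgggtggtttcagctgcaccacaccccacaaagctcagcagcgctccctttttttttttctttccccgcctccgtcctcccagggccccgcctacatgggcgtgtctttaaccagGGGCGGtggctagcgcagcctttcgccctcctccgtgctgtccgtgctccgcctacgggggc
The Hk2 sequence held 2 ACGTG and 3 GGGCGG matches. Pdk1 held 1 GGGCGG, and Pdha1 held none of these motifs. The window of Slc16a3, which had the next highest gene-end ratio after Hk2, held 2 ACGTG and 1 GGGCGG matches.

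Across all start-site windows of the members, each 300 bases long (250 before to 50 after the start, 52 windows of 33 genes), ACGTG occurred in 44.2%, against 20.9% of the 21263 windows of protein-coding genes. CACGTG, which contains ACGTG, was in 13.5% against 7.84%. GGGCGG was in 48.1% against 46.2%, and TGANTCA in 1.92% against 6.99%. Member windows had a median GC content of 60.5% against 56.3%, and a median of 17.5 CpG against 13. The 38 member windows under an accessible region had ACGTG in 52.6%, GC of 64.7% and 21 CpG, and the 14 under none had it in 21.4%, with GC of 50.2% and 2.5 CpG. A match is a string of letters and not a measured binding site, and windows of 1 gene can overlap.

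The other hexokinase regions were mixed. Hk2 had 8 regions, of which 5 were called in all 3 libraries. Besides the gene ends, a region 21870 bp downstream (chr6:82702742-82703155) had 36, 12 and 26 fragments, with undivided cells low. Its ratio was 2.49 (1.27 to 5.25) for divided over undivided and 0.467 (0.215 to 0.959) for undivided over polyclonal cells. Regions inside Hk2 at chr6:82744389-82744737 and chr6:82753118-82753867 were called in divided cells alone, with 22 and 14 fragments. An internal region at chr6:82740100-82740647 had 65, 46 and 30 fragments, and its divided over polyclonal ratio was 1.82 (1.16 to 2.91), with a log2 difference of 0.04 in the authors' fold. Hk1, the constitutive hexokinase, had an even start-site region of 283, 235 and 230 fragments (0.999, 0.837 to 1.19, divided over undivided). Of the 8 Hk1 regions, divided cells had 3 that undivided cells lacked, against 21.2% of all regions. The highest of these had 30 fragments and was shared with polyclonal cells at 26. Hk3, mainly a myeloid hexokinase, had no gene-end or start-site peak, and its strongest region (chr13:55017858-55019019) was lowest in divided cells, at 84, 113 and 127 fragments. That ratio was 0.616 (0.459 to 0.825) over undivided and 0.556 (0.417 to 0.738) over polyclonal cells. Of the 19 regions of the 3 hexokinases, divided cells had 6 that undivided cells lacked (against 21.2% of all regions) and undivided cells 0 in reverse (against 9.93%), while the median log2 ratio was 0.03 and became −0.28 scaled by background.

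Among the glucose transporters, 9 of 14 shared regions had higher scaled pileup in divided than undivided cells (against 50.8% of all such regions). The median log2 ratio was 0.34, against a median of 0.03 over polyclonal cells. Scaled by background, 7 of 14 were above 0 (median 0.03), against 24.6% of all such regions. In the authors' fold, 5 of 14 were above 0 (median −0.10), against 32.6%. Slc2a1, the main glucose transporter of activated T cells, had a start-site region of 186, 114 and 166 fragments. Undivided cells were low there, with divided over undivided at 1.35 (1.07 to 1.72) and undivided over polyclonal at 0.695 (0.542 to 0.887). Local background there was 21.5, 13.7 and 16.3 fragments. In the authors' fold, the log2 difference of divided over undivided cells was only 0.08. A region 2513 bp upstream followed the same order, at 165, 101 and 142 fragments. Its log2 difference over undivided cells in the authors' fold was 0.10. Inside Slc2a1, the region at chr4:119126924-119127833 had 140, 85 and 102 fragments, a ratio of 1.37 (1.04 to 1.81) over undivided cells that turned to a log2 difference of −0.27 in the authors' fold. All 5 Slc2a1 regions called in both CBir1 libraries had higher scaled pileup in divided cells, and 4 of the 5 did in the authors' fold. The largest of these ratios was 2.05 (1.22 to 3.59), at chr4:119125960-119126242, with 52 fragments in divided, 21 in undivided and no peak in polyclonal cells. Its log2 difference in the authors' fold was 0.28. Undivided cells alone had a weak Slc2a1 region 59798 bp upstream, with 10 fragments.

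Slc2a3, a high-affinity glucose transporter, carried the highest member pileup of each library, 331, 267 and 259 fragments, in a region 7908 bp outside its span (chr6:122810271-122811948). That region was even across libraries, at 1.03 (0.872 to 1.21) for divided over undivided cells. Its gene-end region had 82, 47 and 57 fragments, a ratio of 1.45 (0.999 to 2.12). Nearby, a region 2145 bp outside had 40 and 18 fragments in the CBir1 libraries and no polyclonal peak. Inside Slc2a3, 1 region of 11 fragments was called in divided cells alone, and a region of 26 undivided and 21 polyclonal fragments was not called in divided cells. The start sites of Slc2a3 were not in the promoter table used here. Slc2a6, a lysosomal hexose transporter, had a start-site region of 139, 97 and 76 fragments, which was lowest in polyclonal cells (1.54, 1.15 to 2.06, divided over polyclonal, with a log2 difference of 0.05 in the authors' fold). A second Slc2a6 region, 10587 bp upstream, was called in divided and polyclonal cells at 15 and 13 fragments.

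**Figure D3:**
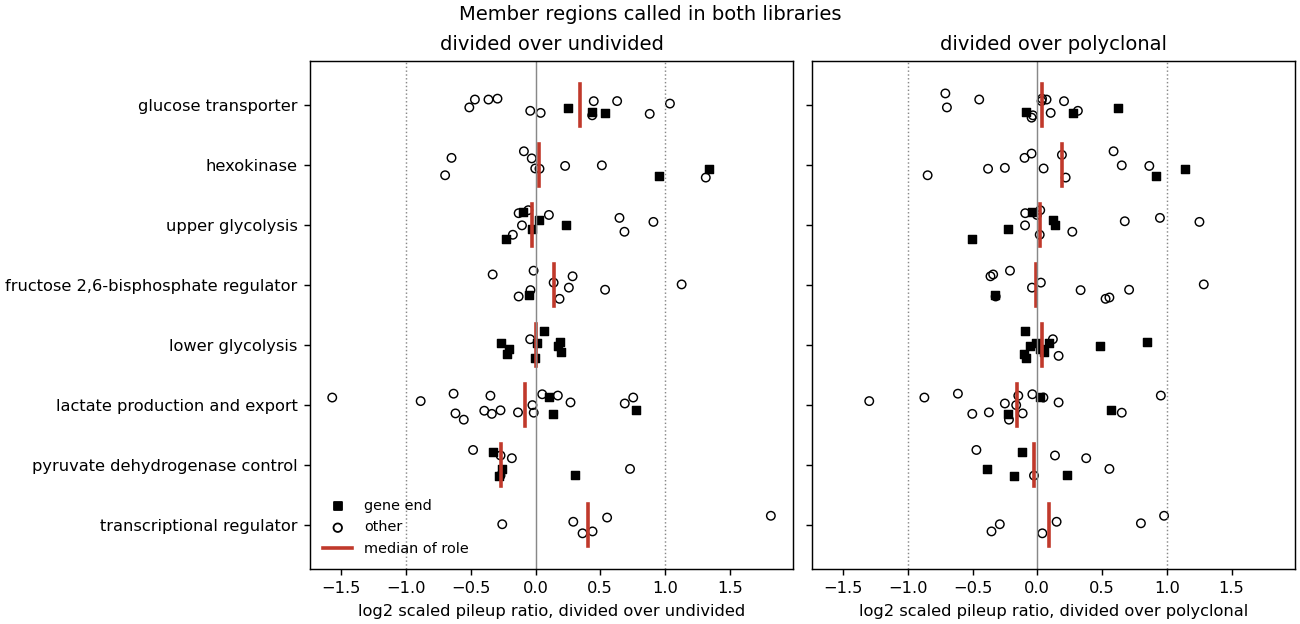
Log2 scaled pileup ratios (x axis) of member regions called in both libraries, by the role of the gene (y axis), for divided over undivided and divided over polyclonal cells; squares are gene-end regions, circles other regions, red bars the median of the role, and dotted lines mark 2-fold. Medians run from −0.27 for pyruvate dehydrogenase control to 0.40 for Hif1a in the comparison with undivided cells, and points of most roles fall on both sides of 0; scaled by background the same medians are −0.58 and 0.09.

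In upper glycolysis, start-site regions differed little between the libraries. Pfkl, the liver-type phosphofructokinase, had 193, 171 and 167 fragments. Pfkp, the platelet type, had 213, 180 and 209 fragments, and Pfkm, the muscle type, had 57, 44 and 48. The isomerase Gpi1 had 146, 119 and 113 fragments. Aldoa, the main aldolase, had 166, 148 and 149. Aldoc, another aldolase, had the lowest start-site pileups of this group, at 37, 36 and 44, in a region it shares with the end of Spag5. The triose phosphate isomerase Tpi1 had 85, 60 and 65, in a region shared with the end of Usp5. Divided over undivided ratios at these start sites ran from 0.852 at Aldoc to 1.17 at Tpi1, and each interval contained 1.

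Inside Pfkp the picture was different from its start site. The region at chr13:6632691-6634253 had 172 divided, 91 undivided and 75 polyclonal fragments, a ratio of 1.57 (1.21 to 2.04) over undivided and 1.93 (1.46 to 2.56) over polyclonal cells. Its local background was 15.7, 6.24 and 5.69 fragments, and in the authors' fold both directions turned, to log2 differences of −0.29 and −0.13. A region at chr13:6626468-6627115 had 34, 15 and 12 fragments, and its ratio over polyclonal cells was 2.38 (1.20 to 5.05), with a log2 difference of 0.52 in the authors' fold. Of its 12 regions, Pfkp had 5 with a divided and no undivided peak, against 21.2% of all regions. Of these, 4 were called in divided cells alone, against 14.2% of all regions. These 4 had 27, 18, 41 and 15 fragments. The 41-fragment region had a −log10 q of 5.53. The remaining 1 was shared with polyclonal cells, at 19 and 10 fragments. Undivided cells alone had 1 Pfkp region, of 8 fragments, and 1 in Gpi1, of 6 fragments.

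The PFKFB enzymes make and remove the fructose bisphosphate that activates phosphofructokinase. Pfkfb3, the isoform with the strongest kinase activity, had an outer start-site region of 136, 117 and 143 fragments and an inner one of 97, 73 and 80. Both were even between the CBir1 libraries, at 0.964 (0.747 to 1.24) and 1.10 (0.805 to 1.51). The Pfkfb3 region that differed lay 41208 bp downstream (chr2:11429695-11430222), with 29, 11 and 10 fragments. Divided cells were high there, at 2.19 (1.06 to 4.85) over undivided and 2.44 (1.15 to 5.61) over polyclonal cells. Divided cells alone also had a region 29330 bp downstream with 13 fragments, and an internal region was shared with polyclonal cells at 42 and 24. Pfkfb2 had a start-site region of 186, 194 and 198 fragments, also at the end of Yod1, which was lower in divided cells at 0.795 (0.647 to 0.977) over undivided cells. Pfkfb4 had a start-site region of 119, 108 and 125 fragments. It had 2 internal regions, of 6 and 13 undivided fragments, that were called in undivided and polyclonal but not divided cells, and 1 of 13 fragments in divided cells alone. Pfkfb1 had no accessible region in any library.

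Lower glycolysis had gene-end peaks at all 7 members in each library. Pkm, the pyruvate kinase gene, had the highest gene-end pileup of any member, at 248, 240 and 224 fragments. Gapdh had 187, 135 and 152, and Pgk1 had 125, 103 and 106. Pgam1 had 117, 112 and 97. The enolase Eno1 had 167, 139 and 149 at its start, and Eno3, the muscle enolase, had 97, 77 and 87 in a region beside but not over its start site. Ratios of divided over undivided cells at these gene ends ran from 0.857 at Pkm to 1.15 at Gapdh, each with an interval that contained 1. The other gene-end region of Eno1 had 24, 24 and 19 fragments, a ratio of 0.829 (0.451 to 1.52). Eno2, the neuronal enolase, was lowest in polyclonal cells. It had 60, 44 and 36 fragments at its start, which also overlaps an end of Lrrc23, and 62, 45 and 29 at its other end, where divided over polyclonal was 1.80 (1.14 to 2.90).

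Away from the gene ends, the strongest region of divided cells alone lay inside Pkm (chr9:59659488-59659984), with 89 fragments, a −log10 q of 23.0 and a local background of 22.9 fragments. The far end of Pkm was called in divided and polyclonal cells, at 32 and 28 fragments. Pgk1, a phosphoglycerate kinase, had 1 internal region of 10 fragments in divided cells alone and 1 shared with polyclonal cells, at 28 and 21. Eno1 had a region 8332 bp downstream with 29 undivided and 25 polyclonal fragments and no divided peak. Polyclonal cells alone had an Eno1 region of 6 fragments, 7759 bp upstream.

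Lactate production and export was, of the 8 roles, the one with the most uniform calls. Peaks from all 3 libraries lay in 18 of its 21 regions (85.7%, against 57.6% of all regions). This role had 0 regions with a divided and no undivided peak (against 21.2%) and 0 in reverse (against 9.93%). Ldha, which reduces pyruvate to lactate, had 95, 76 and 82 fragments at its start. Ldhb, the isoform that favours the reverse reaction, had 127, 96 and 125. The start of Slc16a1, a lactate transporter, had 75, 58 and 62 fragments. These 3 had divided over undivided ratios of 1.04, 1.10 and 1.07. Slc16a3, the lactate exporter of glycolytic cells, had 60, 29 and 34 fragments, with divided cells high and a ratio of 1.72 (1.08 to 2.77) over undivided cells and a log2 difference of 0.29 in the authors' fold. Its ratio over polyclonal cells was 1.48 (0.958 to 2.33). All 3 Slc16a3 regions were above 0 on the log2 scale in divided over undivided cells (against 50.8% of all such regions). Scaled by background, 2 of 3 were (against 24.6%). An internal one had equal raw pileups of 35 in divided and polyclonal cells and 18 in undivided cells.

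Slc16a1 had the only member region more than 2-fold lower in divided than undivided cells. It lay 11763 bp downstream (chr3:104670225-104671089) with 13, 32 and 20 fragments, a ratio of 0.337 (0.162 to 0.660) and a log2 difference of −0.94 in the authors' fold. Another, 48977 bp downstream (chr3:104707439-104708156), had 15, 23 and 31 fragments, and its divided over polyclonal ratio was 0.407 (0.204 to 0.776). Polyclonal cells alone had a region of 12 fragments at the far gene end. An internal Slc16a1 region went the other way, with 59, 29 and 48 fragments and a ratio of 1.69 (1.06 to 2.73) over undivided cells. Upstream of Ldhb, a region at 16881 bp had 53, 39 and 23 fragments, so polyclonal cells were low (1.94, 1.17 to 3.31, divided over polyclonal). Regions called in both CBir1 libraries and not in polyclonal cells lay 6902 bp upstream of Ldhb, with 12 fragments in each, and 24313 bp downstream of Slc16a1, with 11 and 12.

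Pyruvate dehydrogenase turns pyruvate into acetyl-CoA, and the Pdk kinases switch it off by phosphorylating Pdha1, its catalytic subunit. Ratios in this group lay mostly below 0 for divided over undivided cells, with a median log2 of −0.27 over 9 regions. Of these, 2 were above 0 (against 50.8% of all such regions). The start-site region of Pdk1 had 163, 164 and 155 fragments, and that of Pdha1 had 69, 72 and 63. The raw pileups were nearly equal, and the scaled ratios were 0.824 (0.659 to 1.03) and 0.795 (0.563 to 1.12). Pdk2 had 102, 101 and 112 fragments, a ratio of 0.837 (0.630 to 1.11). Pdk3 was the exception, with 88, 59 and 63 fragments and a ratio of 1.24 (0.879 to 1.75). The Pdk1 region 37332 bp downstream (chr2:71941190-71941965) had 158, 183 and 184 fragments, and its interval lay below 1 against both libraries, at 0.716 (0.575 to 0.891) and 0.722 (0.580 to 0.898). Of the group's 15 regions, undivided cells had 4 that divided cells lacked (against 9.93% of all regions), in Pdk1 (10 fragments), Pdk3 (8 and 16) and near Pdk4 (11), and divided cells had 1 in reverse (against 21.2%), 31703 bp upstream of Pdha1, with 8. The Pdk4 region lay 93492 bp upstream of the gene and was its only one. Polyclonal cells alone had a region of 10 fragments beyond the end of Pdk1.

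Hif1a encodes the oxygen-sensitive subunit of the hypoxia-inducible factor. Its start-site region (chr12:73907337-73908711) had 219, 217 and 225 fragments, and divided cells were slightly low after scaling, at 0.837 (0.690 to 1.01) over undivided and 0.818 (0.676 to 0.990) over polyclonal cells. Hif1a had 14 regions, the most of any member, and in 6 of them divided cells had a peak and undivided cells had none (against 21.2% of all regions), with 0 in reverse (against 9.93%). Of these, 5 were in divided cells alone (against 14.2% of all regions), with 20, 23, 12, 15 and 23 fragments. The remaining 1 was shared with polyclonal cells at 29 and 14. The 20-fragment region lay 674 bp from a region called in all 3 libraries, and the last 23-fragment region lay 1 bp from another. A further 2 regions, of 9 and 6 fragments, were called in polyclonal cells alone (against 7.36% of all regions). The region 12636 bp upstream (chr12:73887996-73888688) had 68 divided, 16 undivided and 29 polyclonal fragments. Its ratio of 3.52 (2.02 to 6.51) over undivided cells was the highest of all 94 member regions called in both libraries, and it was 1.97 (1.26 to 3.16) over polyclonal cells. Local background was 3.96, 1.33 and 1.86 fragments, and the log2 difference over undivided cells in the authors' fold was 0.93. Of the 6 Hif1a regions called in both CBir1 libraries, 5 had higher scaled pileup in divided cells, 4 when scaled by background and 3 in the authors' fold. Among all such regions the shares were 50.8%, 24.6% and 32.6%. Over polyclonal cells, the region 5331 bp downstream was lower in divided cells like the start site, at 54, 33 and 58 fragments (0.783, 0.530 to 1.15).

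**Figure D4:**
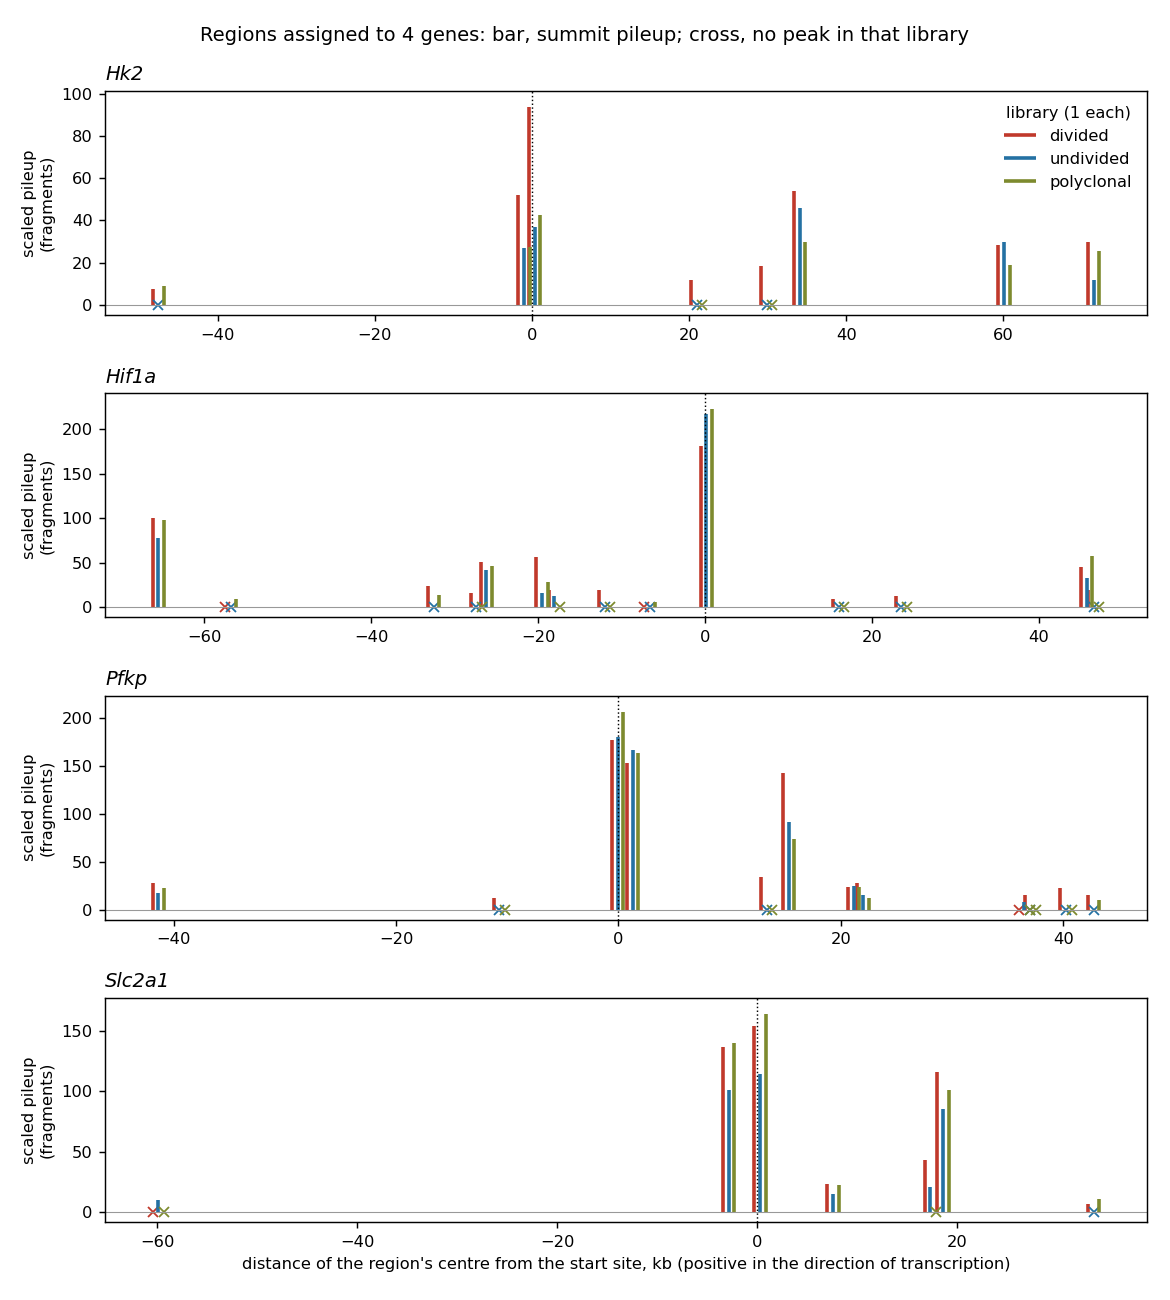
Scaled summit pileup in fragments (y axis) of every region assigned to Hk2, Hif1a, Pfkp and Slc2a1, by distance of the region's centre from the start site in kb (x axis); bars of the 3 libraries are set side by side around that distance, and crosses mark a library with no peak. Divided cells are highest at the start of Hk2, while the tallest Hif1a and Pfkp bars, at their starts, are similar in all libraries.

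Other metabolic genes, in 8 lists of 82 genes, were read the same way, and their counts of regions with a divided and no undivided peak, and the reverse, stand against 21.2% and 9.93% of all regions. The TCA cycle list had gene-end peaks at 15 of 18 genes in each library, 13 of its 51 regions with a divided and no undivided peak, 2 in reverse, and a median log2 ratio of 0.03 over 35 regions. For pyruvate entry to mitochondria the counts were 5 and 1 of 17 regions, and the median was 0.29 over 11 regions, or −0.02 scaled by background. Pdhx, a pyruvate dehydrogenase component, had regions of 32, 9 and 30 fragments and of 55, 22 and 26, with divided over undivided ratios of 2.95 (1.38 to 7.02) and 2.07 (1.24 to 3.57). Amino acid uptake and glutaminolysis genes had 7 and 2 such regions of 51 and a median of −0.05. Within that list, a Slc7a5 region, in the gene of a large neutral amino acid transporter, had 65, 28 and 22 fragments, 2.48 (1.51 to 4.23) over polyclonal cells. It was the only 1 of 38 regions at least 2-fold higher in divided than polyclonal cells (against 3.45% of all regions). A Slc38a2 region (chr15:96770602-96771257) went the other way, with 25, 55 and 29 fragments. Its divided over undivided ratio of 0.377 (0.225 to 0.615) was the only one in the list past 2-fold. The pentose phosphate genes had gene-end peaks at 7 of 7 genes in each library, counts of 2 and 3 of 26 regions, and a median of −0.03. Gluconeogenesis genes gave 2 and 3 of 15 with a median of −0.07, and other hexose transporters gave 5 and 2 of 20 with a median of −0.27 over 9 regions.

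The HIF pathway list had 6 of 38 regions with a divided and no undivided peak and 6 the other way, with a median of 0.02 over 26 regions. Epas1, which encodes a paralogue of Hif1a, moved in both directions. Its regions at chr17:86709829-86710859 and chr17:86801396-86802639 had 21, 45 and 30 fragments and 58, 106 and 78, with ratios of 0.387 (0.219 to 0.663) and 0.454 (0.324 to 0.631) for divided over undivided cells. Another, at chr17:86872546-86873296, had 118, 39 and 35 fragments and a ratio of 2.51 (1.73 to 3.70). Regulators of T cell glucose metabolism gave 10 and 8 such regions of 65 and a median of −0.04 over 44 regions. In that list, a region inside Rptor, a subunit of the mTOR complex, had 30, 7 and 10 fragments, a ratio of 3.55 (1.53 to 9.59). A region 53373 bp from Myc, a transcription factor that induces glycolytic genes, had 39 and 10 fragments and no polyclonal peak, a ratio of 3.23 (1.59 to 7.27). Only these 2 of the 44 regions were at least 2-fold higher in divided than undivided cells (against 4.19% of all regions), and 1 was lower (against 3.24%). That one was another region inside Rptor (chr11:119870972-119871449), with 10 and 17 fragments and no polyclonal peak. Its ratio was 0.488 (0.200 to 1.13).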

How the data were processed

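ATAC-seq peak lists of 3 libraries, 1 for each sorted fraction, were analysed. Per the submitters' processing notes, the authors used bcl2fastq 2.17, cutadapt 1.12, Trimmomatic 0.33, Bowtie2 2.3.2, Picard, SAMtools and MACS2 2.1.0 with the mouse build mm10. How duplicate pools were combined was not given in the sources used here, nor was any shift of reads for the transposase, which moves summits slightly. Each deposited list gives, for each peak, a score that is a rescaled −log10 q, a linear fold enrichment of the summit over local background, and a −log10 p and −log10 q, all as the authors' peak caller wrote them. The score was read only to describe the files. The lowest deposited −log10 q was 1.31, 1.30 and 1.30 in the divided, undivided and polyclonal list, and this is the authors' threshold in the text.

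The members, gene lists and thresholds were chosen with earlier results of these data known. Pileup and local background were solved together from 2 deposited values, the fold, read as (pileup + 1) over (background + 1), and the −log10 p, read as a Poisson tail. Pileups came out whole, within 0.001, for 99.9958% of the divided peaks, 99.9952% of the undivided and 99.9932% of the polyclonal peaks. Read totals were not used here. Regions are unions of peaks that share 1 bp or more, and each was assigned to the nearest span of the 21887 protein-coding genes of a RefSeq table for GRCm38.p6, the assembly of mm10; 2 member regions were equally near another gene. The table has no exons, so exons and introns were not told apart. All 34 members were in it, and 33 were in the RefSeq promoter table that gave strand, start sites and sequences; Slc2a3 was not. Printed promoters follow the rule of the 2 highest and 2 lowest divided over undivided gene-end regions by gene, and that of Slc16a3 was left out because its 250 bases lie inside the gene span.

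Genes were described in detail if they had a region called in 1 or 2 libraries at −log10 q of at least 5, a gene-end region past 2-fold, no gene-end peak in a library, or one of the 4 highest or 4 lowest gene-end pileups. Shares have Wilson intervals and ratios exact (Clopper-Pearson) 95% intervals of the 2 pileups. Fragments may include copies of 1 molecule, so these cover counting error only. The code that recovers pileups and merges peaks into regions was tested on simulated data. Alternatives were stricter −log10 q, depth-limited calls, a 20 kb limit, larger overlap, other scalings and other gene-end windows. Python 3.11.15, numpy 2.4.6, pandas 2.3.3, scipy 1.17.1 and matplotlib 3.10.9 were used.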

Additional observations from a re-analysis of the deposited data

How the results depend on the processing

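No paired analysis was possible because each group is 1 library. The counts of regions called in 1 library and not the other moved most with the peak threshold. At −log10 q of at least 10 in the calling library, 8 regions remained for divided and not undivided and 2 in reverse, 6 for divided and not polyclonal and 1 in reverse, and 0 for undivided and not polyclonal and 1 in reverse. The share over all regions was not computed at this threshold, so these counts have no background to be read against. The divided list also held the most peaks of the 3. At −log10 q of at least 5, 6 remained for undivided and not divided, 6 for polyclonal and not divided, 7 for undivided and not polyclonal and 11 for polyclonal and not undivided. Fewer peaks can pass a stricter threshold by construction. Depth-limited calls, which can remove only the weakest peaks, the 20 kb limit and a larger overlap left each count within 1.5 times. Scaled by background, the median log2 ratio was −0.31 for divided over undivided, −0.21 for divided over polyclonal and 0.064 for undivided over polyclonal, and with the authors' fold it was −0.15, −0.10 and 0.082. Against the shared-region scaling used in the report, every log2 ratio dropped by 0.31 (divided over undivided) and 0.23 (divided over polyclonal), and undivided over polyclonal ratios were higher by 0.083. Of 11 ratios past 2-fold, 8 stayed past it scaled by background and 3 with the authors' fold, and each kept its sign. Of the ratios whose interval left out 1, 17, 15 and 6 in the 3 comparisons, 3, 2 and 0 turned direction with the authors' fold (Hk2 and Pfkp in both of the former, Slc2a1 over undivided cells) and 0 in any comparison by background. The start-site windows were chosen as an alternative after seeing the data and gave 29 members with a peak in each library. The other 47 values differed less. Low pileups, down to 6 fragments in member regions of each library, limit what single regions can show.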

Other observations

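Some regions called in divided cells alone lay close to another region, shared or not. Of the 18 such member regions, 5 (27.8%) were within 1000 bp of another region, against 24.7% of the 7716 such regions near any gene, and 21 of the 88 member regions called in all 3 libraries (23.9%) were, against 16.5%. At Hif1a, the divided-only region at chr12:73954230-73954596, with 23 fragments, began 1 bp beyond a region called in all 3 libraries with 54, 33 and 58 fragments. Inside Pfkp, the divided-only region at chr13:6611640-6611819, with 18 fragments, lay 379 bp from a region of 8 fragments called in undivided cells alone.

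In the pyruvate carboxylase gene Pcx, a first step of gluconeogenesis, an internal region had 16 divided, 28 undivided and 41 polyclonal fragments, with divided cells at 0.474 (0.239 to 0.907) of undivided and 0.328 (0.172 to 0.597) of polyclonal cells. Idh2, the mitochondrial isocitrate dehydrogenase, had a region 4420 bp outside the gene with 18, 32 and 38 fragments, and divided cells were at 0.466 (0.247 to 0.856) of undivided and 0.398 (0.214 to 0.715) of polyclonal cells. A region inside Idh2 went the other way, with 31, 24 and 12 fragments, 2.17 (1.08 to 4.64) for divided over polyclonal cells. Of the 40 TCA cycle regions called in both of those libraries, 5 were at least 2-fold higher in divided cells (against 3.45% of all regions). Another 2 were lower (against 2.1%). Among the 5, a region near Sucla2 and one inside Suclg2 had only 5 polyclonal fragments each. Their intervals contained 1, at 0.942 to 9.39 and 0.731 to 7.83. A region 50987 bp from Rpia, a pentose phosphate isomerase, had 51, 17 and 29 fragments, 2.49 (1.41 to 4.60) for divided over undivided cells.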
